A study of Rattus norvegicus with 36 samples.

Results

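The expression of 9 genes of lymphocytes and thymocytes was followed in the thyroid of rats given 131I, the radioactive iodine isotope that the thyroid takes up. The genes were chosen by name, and each of the 9 was measured by 1 probe, among 15154 genes with a probe on the array. *Rag1*, *Dntt*, *Cd3e*, *Cd3d*, *Cd3g*, *Lck*, *Cd8a* and *Cd4* belong to T cells or their precursors, and *Cd79b* belongs to B cells. The 36 animals were adult male Sprague Dawley rats, and each gave 1 thyroid sample and 1 array. Groups of 4 rats were injected intravenously with 131I, at 9, 88, 170 or 260 kBq in the lower range and at 340, 760, 1300 or 4700 kBq in the upper, and 4 control rats (0 kBq) were mock-treated. All thyroids were taken 24 h after administration. The groups were treated in order of activity, with the controls last, so the order of treatment and the injected activity cannot be told apart. A level is the log2 intensity of a probe relative to the 75th percentile of its array, so that 0 is the level of that percentile. Levels of different genes were read by different probes and are not compared with each other.

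T cells mature in the thymus, an organ of the chest and, in part, of the neck. There, immature thymocytes assemble the genes of their antigen receptor with the recombinase made of RAG1 and RAG2, and the DNA polymerase encoded by *Dntt* adds bases at the joints. Cells that have finished this step and left the thymus switch these genes off, but keep the CD3 chains (*Cd3e*, *Cd3d*, *Cd3g*) that carry the receptor's signal and the kinase LCK that starts it. CD4 and CD8 are co-receptors, carried together by most thymocytes and separately by mature T cells. CD79B is the signalling chain of the B-cell receptor. Thymocytes are known as radiosensitive cells.

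Promoters of 4 of the genes are shown because *Rag1*, *Dntt*, *Lck* and *Cd8a* were high in the same rats. RefSeq promoters, 250 bases before and 50 after the start, were matched for 7 of the 9 genes. Capitals mark matches on either strand of TGNGGT, a core of RUNX binding sites, and of AGGAAG, a core of ETS sites; the *Cd8a* window holds neither. RUNX and ETS factors are families of transcription factors with known roles in T cells.
Rag1 promoter, GRCr8 chr3:108383135-108383434, minus strand: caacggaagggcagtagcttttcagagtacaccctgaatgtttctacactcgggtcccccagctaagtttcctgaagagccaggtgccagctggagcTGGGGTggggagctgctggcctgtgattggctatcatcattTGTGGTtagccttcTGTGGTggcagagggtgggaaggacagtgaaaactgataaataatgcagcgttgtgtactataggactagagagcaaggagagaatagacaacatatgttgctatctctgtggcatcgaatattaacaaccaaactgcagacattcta
Dntt promoter, GRCr8 chr1:249805552-249805851, plus strand: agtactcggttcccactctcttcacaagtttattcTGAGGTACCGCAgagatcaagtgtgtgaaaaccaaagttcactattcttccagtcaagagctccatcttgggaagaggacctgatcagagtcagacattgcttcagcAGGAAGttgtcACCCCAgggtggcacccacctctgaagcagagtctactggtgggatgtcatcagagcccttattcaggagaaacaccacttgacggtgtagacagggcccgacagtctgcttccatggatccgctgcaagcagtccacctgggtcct
Lck promoter, GRCr8 chr5:147201218-147201517, minus strand: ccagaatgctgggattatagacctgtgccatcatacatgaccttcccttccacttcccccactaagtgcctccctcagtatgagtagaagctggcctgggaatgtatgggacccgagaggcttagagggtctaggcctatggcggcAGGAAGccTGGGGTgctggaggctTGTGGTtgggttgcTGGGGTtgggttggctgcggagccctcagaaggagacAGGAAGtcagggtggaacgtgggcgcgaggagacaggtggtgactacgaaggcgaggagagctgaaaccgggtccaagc
Cd8a promoter, GRCr8 chr4:104923866-104924165, plus strand: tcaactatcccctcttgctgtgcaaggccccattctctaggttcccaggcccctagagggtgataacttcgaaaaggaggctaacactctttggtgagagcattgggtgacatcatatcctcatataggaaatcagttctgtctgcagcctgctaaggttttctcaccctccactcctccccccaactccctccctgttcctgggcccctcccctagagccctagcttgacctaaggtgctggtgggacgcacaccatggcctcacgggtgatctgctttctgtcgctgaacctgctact

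The *Rag1*, *Dntt* and *Lck* windows each held 3 matches of TGNGGT, and the *Cd3e* window held 2. The *Cd8a*, *Cd3d* and *Cd3g* windows held 0. The motif was present in 46.4% of 27457 rat promoters of the same length, and AGGAAG, present in 5 of the 7 members' windows, in 34.3%. Matches of the 2 motifs did not overlap in any of the 7 windows. In the *Rag1* window, they shared 2 bases with matches of CANNTG, the E-box, which was found in 5 of the 7 windows and in 71.6% of all promoters. These matches describe the sequence and were not tested for binding. *Cd3d* and *Cd3g* start 1601 bases apart on opposite strands of chromosome 8 in GRCr8, with *Cd3e* nearby, 26251 bases from *Cd3d*.

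Thymocyte genes were high in 3 of the 36 rats, namely control rat 2, 9 kBq rat 2 and 88 kBq rat 1. In these rats *Rag1* and *Dntt* were high together with the CD3 chains, *Lck*, *Cd8a* and *Cd4*. In the other 33 rats *Rag1* was near background. The level of *Rag1*, a subunit of the recombinase, was -9.05, 2.86, -7.54 and -9.24 in control rats 1 to 4. It was -8.53, 3.66, -8.99 and -8.30 in the 4 rats at 9 kBq. At 88 kBq it was 3.64, -8.49, -8.49 and -8.20. In each of these groups 1 rat lay far above the other 3. At 170 kBq the levels were -9.11, -8.38, -8.36 and -8.66, and at 260 kBq -9.13, -8.53, -8.53 and -8.40. They were -8.06, -8.48, -8.07 and -6.24 at 340 kBq. At 760 kBq they were -8.17, -8.52, -8.70 and -7.86. No rat of these 4 groups reached the level of the 3 rats. The values were -7.80, -7.90, -8.49 and -9.25 at 1300 kBq, and -8.38, -8.90, -8.23 and -8.60 at 4700 kBq. The lowest of the 3 high rats exceeded the highest of the other 33 by 9.10 on the log2 scale. The scanner's software marked *Rag1* as well above background on 4 arrays, those of the 3 rats and that of 340 kBq rat 4. The array of this last rat also had the highest share of probes well above background, 91.0% against a median of 72.5%.

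**Figure D1:**
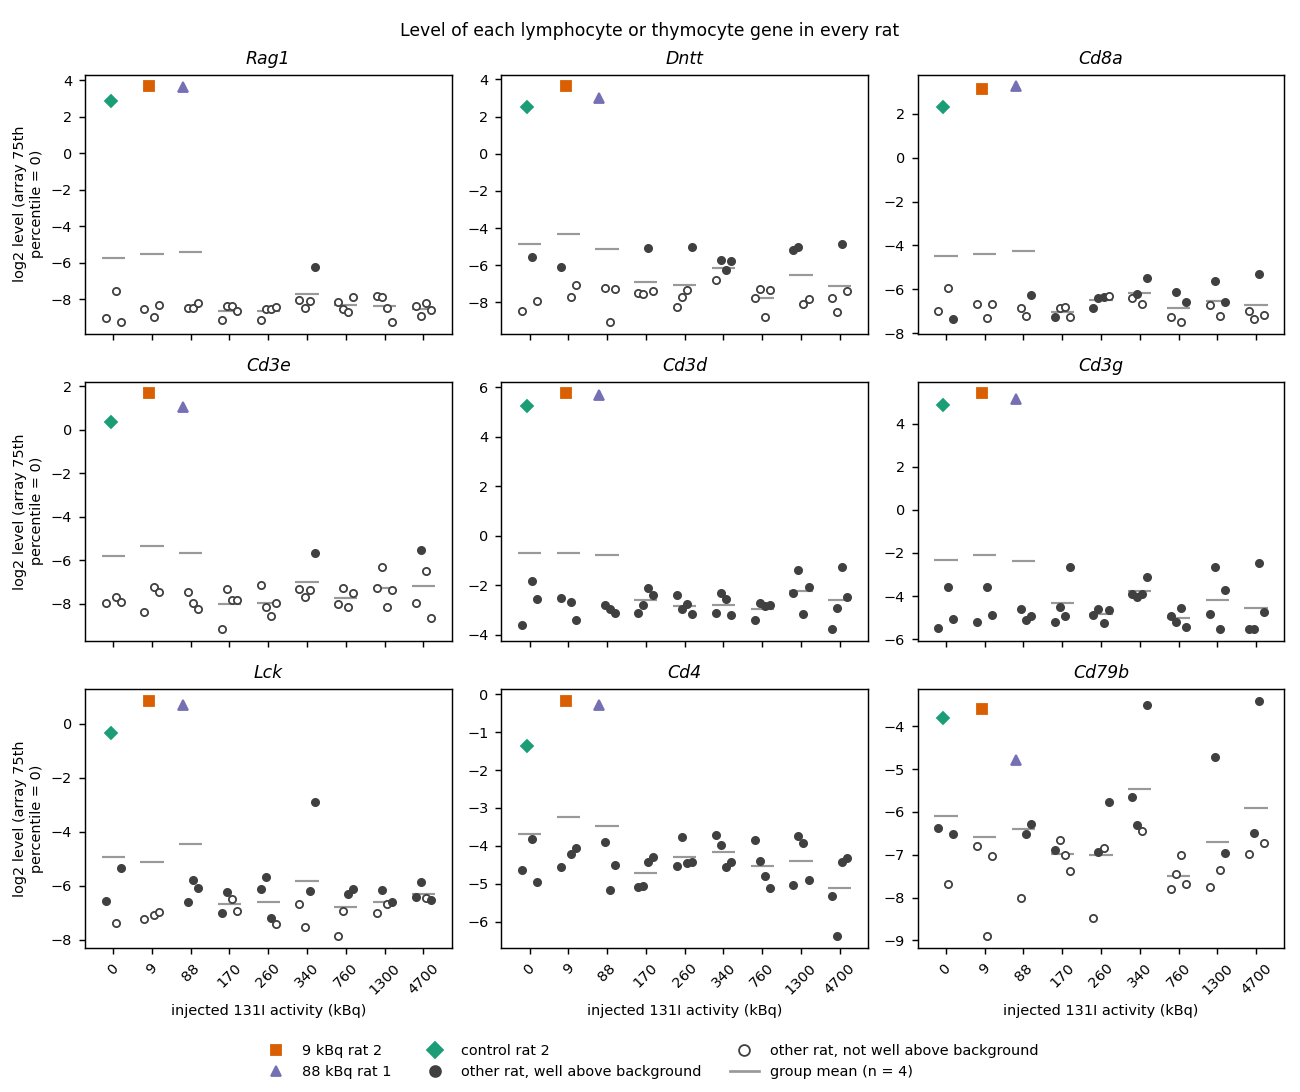
Log2 level of each of the 9 genes (vertical axes, with 0 at the array's 75th percentile) in every rat, by injected activity in kBq (horizontal axes). Filled symbols lie well above background, open symbols do not, grey lines are means of 4 rats, and control rat 2, 9 kBq rat 2 and 88 kBq rat 1 stand above all other rats for every gene except *Cd79b*.

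*Dntt*, which encodes terminal deoxynucleotidyl transferase, was at 2.53 in control rat 2, 3.63 in 9 kBq rat 2 and 2.99 in 88 kBq rat 1. In the other 33 rats it lay between -9.06 and -4.89, with a median of -7.35. Its probe was well above background on 13 arrays, 10 of them from rats in which *Rag1* was low. These 10 were 9 kBq rat 1 (-6.12), 170 kBq rat 3 (-5.07), 260 kBq rat 4 (-5.04), 340 kBq rats 2, 3 and 4 (-5.74, -6.25 and -5.78), 1300 kBq rats 1 and 2 (-5.21 and -5.04), 4700 kBq rat 3 (-4.89) and control rat 3 (-5.57). *Rag1* was not well above background in 9 of these 10 rats. In the same order, their arrays' scaling percentiles were 1972, 2014, 2005, 2057, 2638, 3663, 1797, 2187, 2092 and 2706 on the linear scale. The median over all arrays was 2781, and of the 10 only 340 kBq rat 4 lay above it. The part of this scaling in the *Dntt* levels was not tested. *Rag2*, the other subunit of the recombinase, had levels of 1.25, 1.12 and 0.47 in 9 kBq rat 2, 88 kBq rat 1 and control rat 2, and at most -6.71 in the other rats.

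The CD3 chains were high in the same 3 rats. *Cd3e* was at 1.66 in 9 kBq rat 2, 1.05 in 88 kBq rat 1 and 0.34 in control rat 2, and between -9.17 and -5.55 in the remaining 33. Besides the 3 rats, it was well above background only in 340 kBq rat 4 (-5.67) and 4700 kBq rat 2 (-5.55). *Cd3d* was well above background on all 36 arrays, with levels of 5.74, 5.70 and 5.25 in the same 3 rats and of -3.78 to -1.26 in the others. *Cd3g* was at 5.40, 5.14 and 4.87 against -5.54 to -2.46. The gap between the lowest of the 3 rats and the highest of the 33 was 5.89 for *Cd3e*, 6.51 for *Cd3d* and 7.33 for *Cd3g*.

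The co-receptor gene *Cd8a* was at 3.16 in 9 kBq rat 2, 3.26 in 88 kBq rat 1 and 2.33 in control rat 2, and between -7.50 and -5.32 in the others. *Lck*, the kinase bound to the co-receptors, was at 0.85, 0.69 and -0.36 in these rats. The other 33 rats had *Lck* levels of -7.87 to -2.91, the highest in 340 kBq rat 4. *Cd4* was at -0.16, -0.28 and -1.37, and between -6.39 and -3.72 in the others, so its gap of 2.35 was the smallest among the 8 T-cell genes. The *Cd4* probe was well above background in all 36 rats, that of *Cd8a* in 16 and that of *Lck* in 22.

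*Cd79b*, the B-cell member, was also high in the 3 rats, by 2.10 to 3.29 over the median of the other 33 (-6.88), but did not exceed all of them. It was at -3.59 in 9 kBq rat 2, -4.78 in 88 kBq rat 1 and -3.81 in control rat 2. The highest levels among all rats were -3.40 in 4700 kBq rat 3 and -3.50 in 340 kBq rat 4, and 1300 kBq rat 2 had -4.71. Those rats lay within or above the range of the 3 rats with high *Rag1*. *Cd79b* was well above background on 17 arrays, and its lowest level was -8.90, in 9 kBq rat 3. In 4700 kBq rat 3 and 1300 kBq rat 2, *Rag1* was at -8.23 and -7.90, not well above background. *Cd3d* was higher there (-1.26 and -1.40) than in any other of the 33 rats, and *Cd3g* reached -2.46 and -2.65. *Lck* was at -6.44 and -6.17, near the median of -6.58 in the 33 rats. *Cd3e* was at -6.48 and -6.33 against a median of -7.70, and was not well above background in either. These 2 arrays had low 75th percentiles, 2092 and 2187 on the linear scale against a median of 2781, and the part of this scaling was not tested. *Cd27*, a receptor of lymphocytes, was at -4.60 and -4.23 in these 2 rats, and was singled out here after its values had been seen. The mean over the 7 erythroid genes with a probe, such as *Hba-a1* and *Hbb-b1* of haemoglobin, was also highest in 4700 kBq rat 3, at 3.36 against a median of 0.55 in the 33 rats. Its part in the lymphocyte levels was not tested.

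Genes outside the 9 showed the same 3 rats. All 3 exceeded every one of the other 33 rats for 1093 of 30268 probes with a value on every array, which is 3.61%, and fell below all of them for 0.644%. The 3 rats were chosen by their *Rag1*, *Rag2* and *Dntt* levels, so these counts describe them and carry no test. Among the 9 genes, 8 had this order. Among other genes of T-cell receptor signalling it was 16 of 20 genes with a probe, of other thymocyte genes 6 of 10, and of other mature T-cell genes 6 of 12. It was 2 of 13 for other B-cell genes, 2 of 8 for natural killer and cytotoxic cells, 4 of 9 for proliferation and 2 of 13 for p53 targets (*Fas* and *Btg2*). Some p53 targets were low instead, and *Cdkn1a*, which encodes the cell cycle inhibitor p21, was at 0.40, 0.99 and 0.76 in 9 kBq rat 2, 88 kBq rat 1 and control rat 2, against a median of 3.25 in the other 33. *Phlda3* was also below that median in all 3. These p53 targets other than *Cdkn1a* were chosen after their values were seen. *Rag1* had the largest gap of all probes with a gene symbol, followed by *Cd8a* and *Dntt*.

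Among the signalling genes, *Cd247*, the zeta chain of the receptor complex, was at 4.52, 4.46 and 3.72 in 9 kBq rat 2, 88 kBq rat 1 and control rat 2, and at most -3.13 in the others. The kinase gene *Zap70* was at 3.42, 3.21 and 2.47, and at most -2.52 elsewhere, and the surface receptor gene *Cd6* at 4.03, 4.17 and 3.47 against at most -0.78. *Csk* and *Plcg1*, which many cell types use, did not separate these rats. *Csk* was at 3.77, 2.91 and 3.09 with up to 3.14 in the others, and *Plcg1* at -0.53, -1.60 and -1.43 with up to -0.78. Among thymocyte genes, *Satb1*, a chromatin organiser, was at 4.93, 5.17 and 4.14 against at most 3.23. *Cd8b*, the partner chain of CD8, was at 2.44, 2.36 and 1.34 against at most -4.64. *Arpp21* (3.12, 3.12 and 2.26 against up to 2.67) and *Tcf12* (1.19, 0.84 and -0.21 against up to -0.15) overlapped with the other rats. So did *Cd1d1* (-0.43, -0.67 and -0.88 against up to 1.47). *Endou* went the other way, at -6.17, -4.29 and -4.24 against a median of -3.51 in the others.

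Mature T-cell genes were divided. *Cd27* was at 3.51, 3.39 and 2.76 in 9 kBq rat 2, 88 kBq rat 1 and control rat 2. *S1pr1*, the receptor with which T cells leave the thymus, was at -0.44, -0.57 and -0.76 in these rats, within the range of -1.55 to 0.43 in the other 33. *Klf2* (-1.31, -2.77 and -1.13, against -3.35 to 0.29) and *Foxp3* of regulatory T cells (-5.16, -4.92 and -5.54, against -6.04 to -2.81) also lay within it. Among B-cell genes, *Pax5*, *Blnk* and *Fcrla* had levels inside the range of the other rats in each of the 3. *Cd37* (-2.17, -3.03 and -3.21 against at most -4.56) and *Blk* (-4.11, -4.77 and -5.09 against at most -5.52) lay above all others. These 2 were chosen after their values had been seen. The B-cell list averaged -3.40, -4.53 and -4.17, with a median of -5.51 and a highest of -4.36 in the other 33. *S1pr1* and *Klf2* are also used by endothelial cells.

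Markers of thymic epithelium, the stroma of the thymus, were present in part. The protease gene *Prss16* was at 0.11, -0.46 and -1.24 in 9 kBq rat 2, 88 kBq rat 1 and control rat 2, and at most -5.50 in the other rats. The chemokine gene *Ccl25* was at 0.65, 0.91 and 0.11, and at most -5.75 elsewhere. *Foxn1*, the defining factor of this epithelium, was at -5.22, -5.60 and -6.52, within the range of -7.52 to -4.36 in the other 33. *Dll4* and *Aire* also overlapped, so that 2 of the 5 markers with a probe separated the rats, and the summed list averaged -2.98, -3.60 and -4.10 against -7.63 to -5.19. *Prss16*, *Ccl25* and *Aire* were singled out after their values had been seen. Of the stroma of lymph nodes, 0 of 7 markers separated the 3 rats. *Ccl21*, for instance, was at 3.11, 1.12 and 3.38 against 1.36 to 4.10 in the others, and *Ltbr* at 2.34, 1.92 and 2.33 against 2.28 to 3.42. *Ccl19*, a chemokine gene of the same list chosen after its values were seen, was at 2.35, 1.09 and 1.60, at least 2.06 above the median of the other 33, and 88 kBq rat 1 fell just short of their highest level of 1.10.

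**Figure D2:**
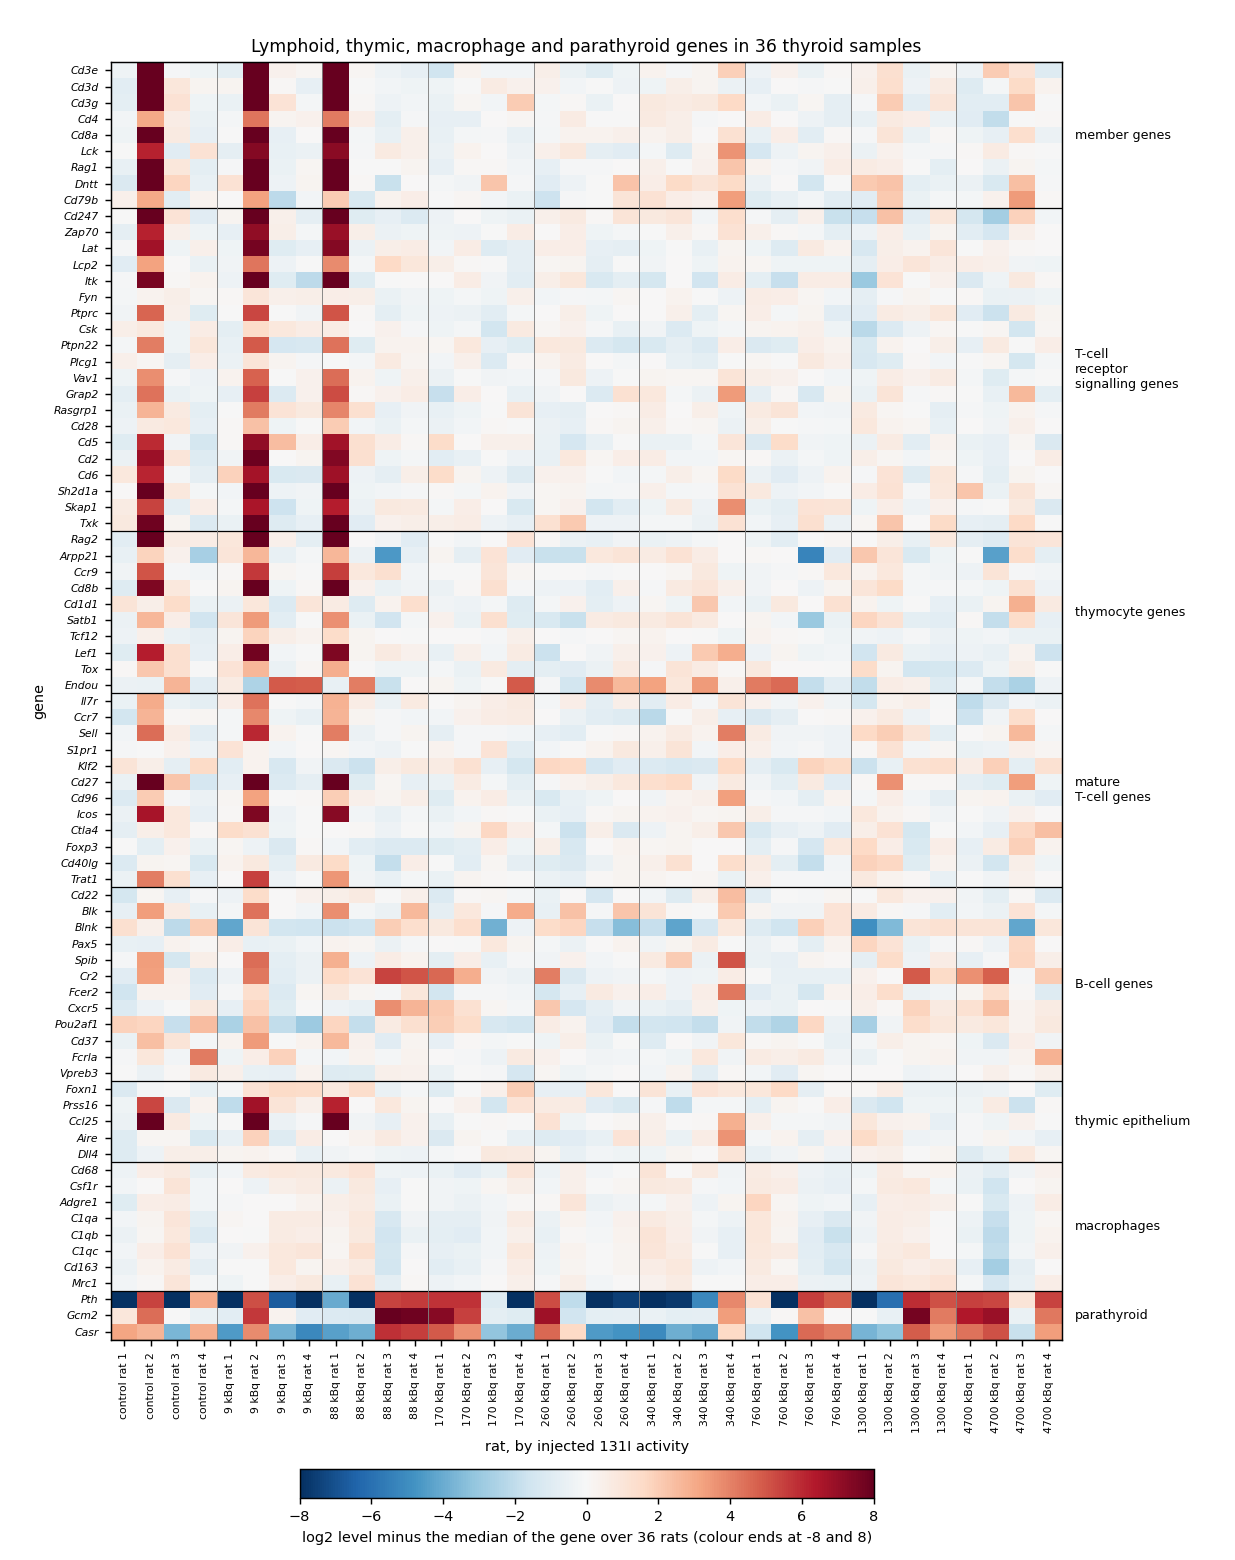
Log2 level minus the gene's median over the 36 rats (colour) for genes of 8 lists (rows), with rats ordered by injected activity (columns). Control rat 2, 9 kBq rat 2 and 88 kBq rat 1 form 3 dark red columns through many of the T-cell and thymocyte genes, *Prss16* and *Ccl25*, and not through the macrophage or most B-cell genes.

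The 3 rats differed in the other tissues of their samples. *Pth*, the hormone of the parathyroid, was at 6.24 in 9 kBq rat 2 and 6.46 in control rat 2, but at -2.98 in 88 kBq rat 1. *Tg*, the main protein of the thyroid follicles, was at 6.78, 6.20 and 6.89 in 9 kBq rat 2, 88 kBq rat 1 and control rat 2, within -4.51 to 7.48 in the others. The follicular list averaged 1.35, -2.54 and 0.93 and the skeletal muscle list 0.51, 5.93 and 5.59. For macrophages, blood erythroid cells, follicular cells, parathyroid, C cells, skeletal muscle, squamous epithelium, cartilage, adipose tissue and glucocorticoid-responsive genes, 0 markers separated the 3 rats from the other 33. *C1qb*, a macrophage marker, was at 3.27, 3.53 and 3.43 in the 3 rats, within 1.22 to 4.29 in the others. In these bulk samples, fewer cells of a type and less RNA per cell cannot be told apart.

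The genes most like *Rag1* over the 36 arrays were *Lag3* (Pearson's r = 0.981), *Cd8b* (0.975), *Sit1* (0.972), *Il21r* (0.971), *Syne3* (0.970), *Zap70* (0.970), *Ptprcap* (0.967) and *Arhgap45* (0.966). Those most like *Cd3e* were *Lag3* (0.965), *Sit1* (0.961), *Cd8b* (0.956), *Il21r* (0.954), *Tmem156* (0.951), *Dennd1c* (0.948), *Syne3* (0.943) and *Zap70* (0.941). These values describe the arrays and have no p-value, since the 3 rats set them.

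The mean of the thymocyte genes *Rag1* and *Dntt* minus the mean of *Cd3e*, *Cd3d*, *Cd3g* and *Lck* was formed for each rat, to be compared between rats only. It was 0.17 in control rat 2, 0.23 in 9 kBq rat 2 and 0.17 in 88 kBq rat 1. In the other 33 rats it was -3.76 to -0.92. The highest of these, 260 kBq rat 4, had *Dntt* at -5.04 and *Rag1* at -8.40. By group, the difference was -1.86 ± 1.58 (SD, n = 4) in the controls, -1.61 ± 1.42 at 9 kBq, -1.95 ± 1.495 at 88 kBq and -2.34 ± 0.75 at 170 kBq. It was -2.31 ± 1.12 at 260 kBq, -2.08 ± 0.25 at 340 kBq, -2.42 ± 0.59 at 760 kBq, -2.37 ± 1.004 at 1300 kBq and -2.67 ± 0.73 at 4700 kBq. The high SD at 0, 9 and 88 kBq came with the 1 rat of high *Rag1* in each. In the other 33 rats *Rag1* was well above background in only 1, and with another background correction, normexp, the difference was -0.995 at 170 kBq. This score was not tested.

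**Figure D3:**
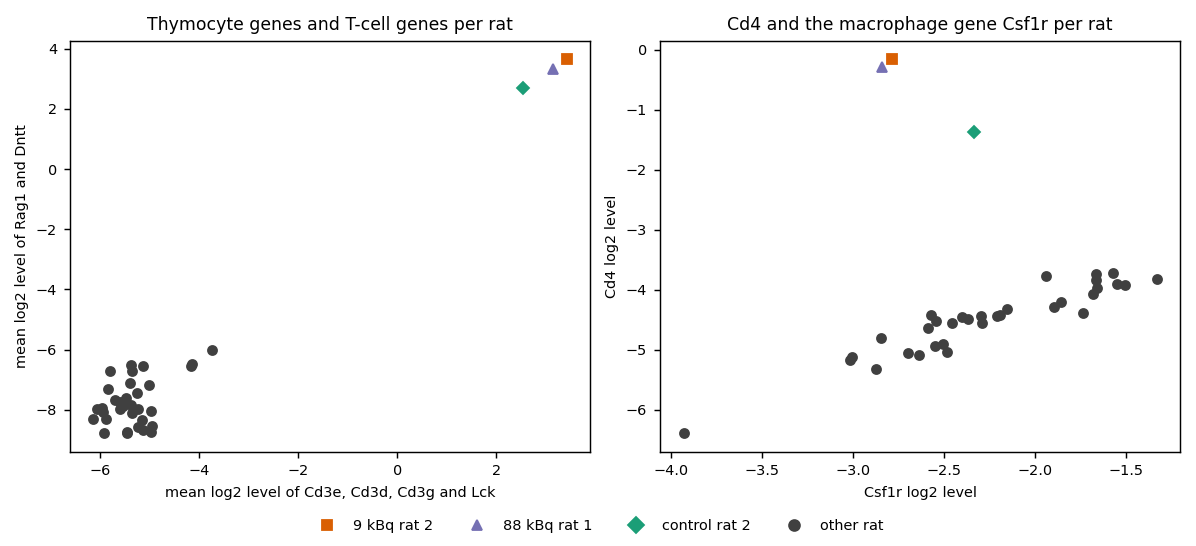
Left, the mean log2 level of *Rag1* and *Dntt* (vertical) against that of *Cd3e*, *Cd3d*, *Cd3g* and *Lck* (horizontal), 1 symbol per rat. Right, the log2 level of *Cd4* against that of *Csf1r*. Control rat 2, 9 kBq rat 2 and 88 kBq rat 1 stand apart on both, and the other 33 rats form a cloud on the left and a rising band on the right.

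The dose question is whether the lymphocyte and thymocyte genes changed with the injected activity. In limma, which compared each group with the controls in 1 fit over 30367 probes, 0 of the 9 genes were regulated in each of the 8 groups. A regulated gene had to change at least 1.5-fold with its adjusted p-value below 0.01, and 0% of all probes passed in each group. At an unadjusted p-value under 0.05, 0 of the 9 genes passed in each group. The corresponding share of all probes was 3.22% at 9 kBq, 3.36% at 88 kBq, 2.36% at 170 kBq and 1.12% at 260 kBq. It was 13.7% at 340 kBq, 1.64% at 760 kBq, 4.18% at 1300 kBq and 1.66% at 4700 kBq. The p-values rest on the spread between rats of a group, pooled over all groups, which was wide for these genes. This pooled SD was 3.48 for *Rag1*, 3.23 for *Dntt* and 2.66 for *Cd3e*, and 1.24 for *Cd4*, against 0.67 for the median probe. Within single groups the SD of *Rag1* was 5.78 in the controls, 6.14 at 9 kBq and 6.02 at 88 kBq. It lay between 0.29 (4700 kBq) and 1.002 (340 kBq) in the other groups. Each comparison thus also carried the spread at 9 and 88 kBq, whichever group was compared.

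The group differences followed the 3 rats. At 9 and 88 kBq, where 1 rat in 4 had high *Rag1*, as in the controls, the median log2 difference of the 9 genes from the controls was 0.20 and 0.15. The genes were lower than in the controls in most comparisons at higher activity, with medians of -2.03 at 170 kBq, -2.14 at 260 kBq, -1.29 at 340 kBq, -2.26 at 760 kBq, -1.69 at 1300 kBq and -1.92 at 4700 kBq. The median of all probes was between 0.03 and 0.31 in these comparisons, which share the same 4 controls. Without the 3 rats, the medians of the 9 genes were 0.00 at 9 kBq, -0.05 at 88 kBq, -0.12 at 170 kBq, -0.10 at 260 kBq and 0.85 at 340 kBq. They were -0.28 at 760 kBq, 0.25 at 1300 kBq and 0.13 at 4700 kBq. At 340 kBq 8 of the 9 genes were then higher and 1, *Rag1*, had an unadjusted p-value under 0.05 (log2 difference 0.89, not regulated after adjustment), as did 8.59% of all probes, whose median difference was 0.28. That group holds 340 kBq rat 4, whose array had the highest share of probes well above background, and the part of this array was not tested. Leaving out these rats was chosen after their values had been seen.

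At the highest activity, 4700 kBq, *Rag1* was at -8.53 ± 0.29 (SD, n = 4) against -5.74 ± 5.78 in the controls. It was well above background in 0 of 4 rats at 4700 kBq and in 1 of 4 controls, so the fold change itself cannot be given. For a rough value, the 4700 kBq rats were set no lower than the lowest level well above background on each array. The control mean was then 3.39-fold higher, which rests on control rat 2. The other controls kept levels that were not well above background, so this is not a strict lower bound. Two-sided exact permutation tests of 4 against 4 rats gave p = 0.543 for *Rag1*, 0.657 for *Dntt* and 0.2 for *Cd4*, where 0.0286 is the smallest p possible. Over the 9 genes the exact p was between 0.2 and 0.8. *Cd4* had the largest change relative to its error, a log2 difference of -1.42 (SE 0.85, adjusted p = 0.9999 in limma), from -3.70 ± 1.62 (SD, n = 4) to -5.12 ± 0.96. Without control rat 2 the *Cd4* difference was -0.65. Macrophage markers were lower with it, in 8 of 8 genes at 4700 kBq with a median of -0.60 (-0.59 without the 3 rats), 0 of them regulated, and their part in the *Cd4* difference was not tested.

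All irradiated rats were compared with the controls as well. The 9 genes had log2 differences of -1.90 to -0.47, with a median of -1.51, an unadjusted p of at least 0.245 and 0 genes regulated, where 0% of probes were regulated and 3.27% passed an unadjusted p-value under 0.05. Without the 3 rats the differences were -0.07 to 0.26. The difference of *Rag1* was -1.90 (SE 1.78) with all rats and 0.21 (SE 0.34) without the 3. Within slides, where up to 8 arrays were hybridized together, irradiated minus control *Cd3d*, which was well above background on every array, was 1.38 on slide 1, -8.004 on slide 2 and 0.26 on slide 5. The irradiated arrays of slide 1 included 9 kBq rat 2, 1 of the 3 rats, with *Cd3d* at 5.74. Control rat 2 was the only control on slide 2, and slides 3 and 4 held no control.

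Over the 32 irradiated rats, the slope of the level on the log10 of the activity was negative for 8 of the 9 genes and passed an adjusted p-value under 0.01 for 0, where 0.0132% of all probes passed (4 probes). The slopes per 10-fold activity were -1.26 (SE 0.65) for *Rag1*, -1.11 (SE 0.60) for *Dntt*, -1.04 (SE 0.55) for *Cd3g* and -0.9996 (SE 0.54) for *Cd8a*. *Cd4* had the smallest p-value, with a slope of -0.66 (SE 0.25, unadjusted p = 0.0120 and adjusted p = 0.319 in limma). It was 1 of 9 genes with an unadjusted p-value under 0.05, against 10.9% of all probes. The slope of *Cd79b* was 0.10 (SE 0.30). Without 9 kBq rat 2 and 88 kBq rat 1, the slope was 0.06 (SE 0.14) for *Rag1*, then mostly at background, 0.04 (SE 0.29) for *Dntt* and 0.04 (SE 0.22) for *Cd3g*. It was -0.22 (SE 0.14) for *Cd4*, the only negative slope left among the 9 genes, and the median slope of the 8 macrophage markers without these rats was also -0.22 (8 of 8 were negative with all rats). Their part in the *Cd4* slope was not tested. The slope without the 2 rats was 0.48 (SE 0.29, unadjusted p = 0.107 in limma) for *Cd79b*. The negative slopes of the T-cell genes other than *Cd4* thus rested on 1 rat at each of the 2 lowest activities. That of *Cd4* was also nearer 0 without these rats, with an unadjusted p of 0.132 in limma.

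**Figure D4:**
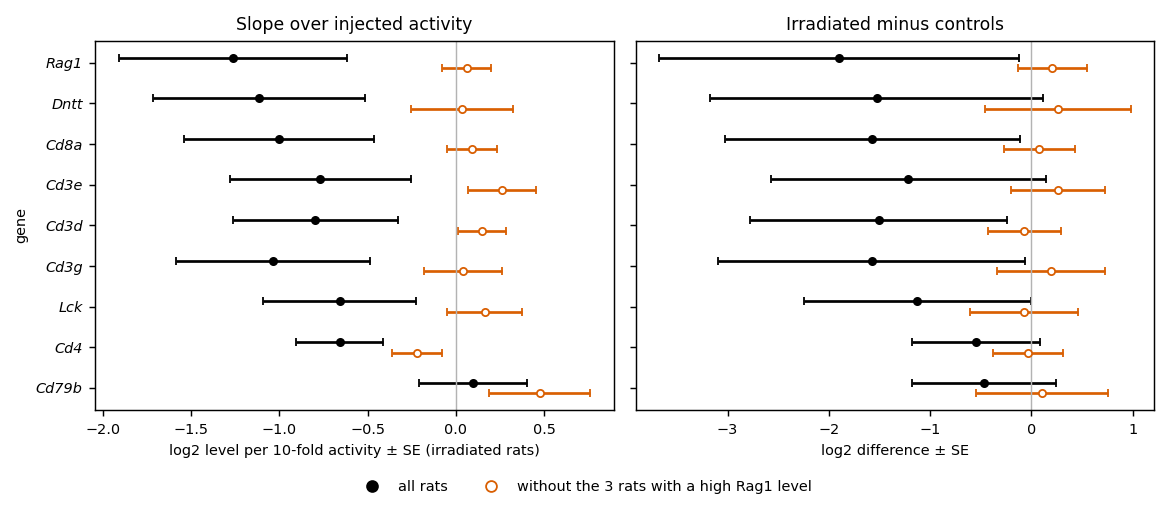
Slope of each gene's log2 level per 10-fold injected activity over the irradiated rats (left) and log2 difference of all irradiated rats from the controls (right), with SE from limma. Filled symbols used all rats and open symbols left out control rat 2, 9 kBq rat 2 and 88 kBq rat 1, without which all slopes lay between -0.22 and 0.48.

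Within slides the slopes showed the same dependence. On slide 1, with 6 irradiated arrays, the *Cd3d* slope was -2.37 with 9 kBq rat 2 and 0.40 without it. On slide 4, also with 6, it was -0.70 with 88 kBq rat 1 and -0.12 without it. On slides 2, 3 and 5, with 7, 7 and 6 irradiated arrays, it was -0.014, 0.17 and -0.11. Each of these slopes rests on few arrays and was not tested.

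Of the other T-cell receptor signalling genes, 20 of 20 had a negative slope (median -0.58), 7 had an unadjusted p-value under 0.05 and 0 passed after adjustment. For other thymocyte genes 9 of 10 slopes were negative (median -0.55), 3 passed an unadjusted p-value under 0.05 with lower levels and 0 passed after adjustment. For other mature T-cell genes, 1 passed with lower and 1 with higher levels at that limit, of 12, and for other B-cell genes 1 of 13 with lower levels, with 0 passing after adjustment in both lists. Without the 3 rats the median slope was 0.02 for the signalling genes, with 1 lower and 1 higher at that limit, and -0.09 for the thymocyte genes, with 2 of 10 lower. Proliferation genes were also lower at higher activity, with 8 of 9 lower at that limit (median slope -1.27) and 0 after adjustment. Unlike the signalling genes, they kept this without the 3 rats, with 7 of 9 lower (median -1.01) and 0 after adjustment. Their part in the slopes of the lymphoid genes was not tested. With all rats the median slope of all probes was 0.03. At an unadjusted p-value under 0.05, 6.33% of all probes then passed with lower levels at higher activity and 4.53% with higher levels. Without the 3 rats the median slope of all probes was 0.01, and 11.2% of them passed that limit in either direction.

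Among the 33 rats with low *Rag1*, 8 relations between genes were computed. The rats with high *Rag1* were left out after their values had been seen, by levels that include *Rag1* and *Dntt* themselves. The permutation tests of the relations do not account for this choice. *Rag1* and *Dntt* had Pearson's r = 0.554 (adjusted p = 0.00416) and Spearman's rho = 0.653 (adjusted p = 0.000480) in permutation tests. However, *Rag1* was well above background in only 1 of the 33 rats and *Dntt* in 10. The r was 0.556 without the 2 rats farthest from the median of *Rag1*, 0.577 for deviations from group means and 0.576 for deviations from slide means. With quantile normalization of the arrays r was 0.132, and with the authors' matrix it was 0.10, so the relation did not hold under those scalings. Both genes of each relation are given relative to the same percentile of their array. The permutation tests of the 8 relations therefore cannot tell a relation between genes from shared scaling. The part of this scaling in the relation of *Rag1* and *Dntt* was not tested. *Cd4* and *Cd8a* had r = 0.383 (adjusted p = 0.0369, permutation test) and rho = 0.380 (adjusted p = 0.0974). Without the 2 farthest rats r was 0.310, and it was 0.347 and 0.359 for deviations from group and slide means.

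The relations of *Cd3e* with *Lck* (r = 0.485) and *Cd79b* (0.408), and of *Rag1* with *Cd3e* (0.403) and *Cd79b* (0.454), had adjusted p-values of 0.0318, 0.0369, 0.0369 and 0.0361 in permutation tests. Their rank correlations were 0.220, 0.0612, 0.259 and 0.176, with adjusted p-values of 0.352, 0.733, 0.289 and 0.371. Without the 2 farthest rats r was 0.147, 0.246, 0.165 and 0.268, so these 4 relations rest on those rats. For deviations from group means r was 0.475, 0.268, 0.312 and 0.387, and from slide means 0.444, 0.398, 0.394 and 0.413. *Cd3e* and *Tg* had r = -0.127 (adjusted p = 0.524, permutation test) and rho = -0.369 (adjusted p = 0.0974), and r = -0.354 without the 2 farthest rats. *Rag1* and *Pth* had r = -0.121 (adjusted p = 0.524, permutation test) and rho = -0.176 (adjusted p = 0.371), and r = -0.256 without them. For deviations from group and slide means r was -0.0899 and -0.153 for the former and -0.123 and -0.0652 for the latter. Over all 36 rats no relation was tested, because the 3 rats form a separate cluster.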

How the data were processed

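Total RNA of each thyroid was labelled with Cy3 and hybridized by the authors to Agilent SurePrint G3 Rat 8x60K arrays. In the scanner files that the authors deposited, the processed signal of a spot is an intensity after background subtraction by Agilent Feature Extraction 10.7.3.1, without normalization between arrays. The matrix deposited by the authors holds intensities on a linear scale after quantile normalization across arrays. It served as an alternative. The submitters' processing notes name Partek.

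Control spots were removed together with spots flagged as outliers (331 to 1365 per array). Log2 processed signals were then centred on the array's 75th percentile (1564 to 4288 on the linear scale), and spots of a probe were averaged, giving 30367 probes. Symbols were assigned through RefSeq accessions to 17998 probes. Where a gene had several probes, the one with the highest mean was used. Between 62.6% and 91.0% of probes per array were well above background, 0 spots were saturated, and 99 probes without a value on at least 1 array were fitted on the remaining arrays. The number of arrays limits the precision.

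Group comparisons and the slope over log10 activity used limma 3.58.1 in R 4.3.3 with Benjamini-Hochberg adjustment within each comparison. On simulated data for 4700 kBq against controls (30268 probes), 98.99% of 99 changes of at least 4 times the spread and 24.75% of 101 smaller changes were called. Permutation tests (exact for 4 against 4 rats, otherwise 100000 permutations, two-sided) used scipy 1.17.1 and numpy 2.4.6 under Python 3.11.15. Files were read with the data.table package (1.17.8) and pandas 2.3.3 and drawn with matplotlib 3.10.9. The highest Pearson's r over the 630 pairs of arrays was 0.991 and the smallest root mean square difference 0.53 (log2), so no array was a copy of another. Rat numbers did not pair the samples (median correlation of deviations -0.0266 over 144 pairs, over 0.1 in 57).

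The members, the 20 gene lists and the tests were chosen with earlier results of these data known. Named genes were the members, the 3 genes of highest mean in each T-cell or B-cell list and the 2 of highest mean in other lists, *Foxn1*, *Rag2*, *Tg* and *Pth*, and the 8 genes most like *Rag1* or *Cd3e* among probes well above background on at least 9 arrays. *Ptcra* and *Psmb11*, also in this rule, had no probe. Other named genes were chosen after their values were seen. One B-cell gene of the lists is not reported here. Alternatives were quantile normalization, median centring, normexp with an offset of 50, the authors' matrix, a filter on dim probes, slide, scan day or rat number as a block, array weights, a fit of only 2 groups, the rank of activity, each rat left out in turn and, added after seeing the data, the 3 rats that stand apart left out.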

Additional observations from a re-analysis of the deposited data

Results flagged for a closer look

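Each of the 9 genes was examined in each of the 9 groups for a rat far from the other 3 (Dixon's test for 4 values), 81 sets in all, and 24 held such a rat, where chance gives about 1 in 20 of independent sets. These sets are not independent, since the 9 genes were read in the same rats. Of the 24, 18 were control rat 2, 9 kBq rat 2 or 88 kBq rat 1, which were already known to stand apart in these genes. In 9 kBq rat 2 they were *Cd3e* (1.66), *Cd3d* (5.74), *Cd3g* (5.40), *Cd4* (-0.16), *Cd8a* (3.16), *Lck* (0.85), *Rag1* (3.66) and *Dntt* (3.63). In 88 kBq rat 1 they were *Cd3e* (1.05), *Cd3d* (5.70), *Cd3g* (5.14), *Cd8a* (3.26), *Lck* (0.69), *Rag1* (3.64) and *Dntt* (2.99). In control rat 2 they were *Cd3e* (0.34), *Cd8a* (2.33) and *Rag1* (2.86). The other 6 were *Cd3g* in 340 kBq rat 4 (-3.11), *Cd4* in 260 kBq rat 2 (-3.78), *Cd8a* and *Cd79b* in 4700 kBq rat 3 (-5.32 and -3.40), *Lck* in 4700 kBq rat 2 (-5.87) and *Dntt* in 170 kBq rat 3 (-5.07). All 24 were the highest rat of their group.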

How the results depend on the processing

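In every alternative run, 0 of the 9 genes were called in each comparison. Few arrays per group, dim probes (*Rag1* and *Cd3e* lay well above background on 4 and 5 arrays) and the 3 rats that stand apart limit these results. The filter on dim probes left only *Cd3d*, *Cd3g*, *Cd4* and *Lck* to be tested. The iteration that estimates array weights stopped before convergence. Except where a construction is named, the cause of a change was not tested.

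Without control rat 2, 9 kBq rat 2 and 88 kBq rat 1, the direction turned at 4700 kBq for *Cd3e* (0.69), *Cd3d* (0.061), *Cd3g* (0.14), *Cd8a* (0.051), *Lck* (0.13), *Rag1* (0.078) and *Dntt* (0.18), in all irradiated rats for *Cd3e* (0.26), *Cd3g* (0.19), *Cd8a* (0.076), *Rag1* (0.21), *Dntt* (0.26) and *Cd79b* (0.10), and in the slope for *Cd3e* (0.26), *Cd3d* (0.15), *Cd3g* (0.040), *Cd8a* (0.090), *Lck* (0.16), *Rag1* (0.061) and *Dntt* (0.035). The *Cd79b* slope was -0.014 with normexp and -0.00383 per rank of activity, and its difference at 4700 kBq was -0.60 with array weights.

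Among all probes, quantile normalization called 4, 4, 3 and 4 at 9, 88, 170 and 260 kBq and 3 in all irradiated rats, and the authors' matrix 4, 4, 3, 4 and 2. Normexp called 2 each at 9, 88 and 4700 kBq, and the filter on dim probes 4 at 9 kBq and 3 at 88 kBq. Array weights called 364, 6, 5, 5, 1 and 20 at 9, 88, 170, 340, 1300 and 4700 kBq, 1 in all irradiated rats and 149 in the slope, where the rank of activity called 2. Leaving out each rat in turn called 0 to 1 at 9, 88, 170 and 760 kBq, 0 to 3 at 340 kBq, 0 to 2 at 4700 kBq and in all irradiated rats, and 4 to 6 in the slope. Leaving out each rat in turn, the differences at 4700 kBq were -2.07 to 0.69 for *Cd3e*, -2.90 to 0.061 for *Cd3d*, -3.31 to 0.14 for *Cd3g*, -1.84 to -0.65 for *Cd4*, -3.18 to 0.051 for *Cd8a*, -2.22 to 0.13 for *Lck*, -3.95 to 0.078 for *Rag1*, -3.49 to 0.18 for *Dntt* and -0.64 to 0.96 for *Cd79b*. In all irradiated rats they were -1.93 to 0.83 for *Cd3e*, -2.49 to 0.47 for *Cd3d*, -2.64 to 0.82 for *Cd3g*, -0.96 to 0.23 for *Cd4*, -2.52 to 0.70 for *Cd8a*, -1.95 to 0.39 for *Lck*, -3.06 to 0.97 for *Rag1*, -2.73 to 0.93 for *Dntt* and -0.996 to 0.30 for *Cd79b*. The highest value of each T-cell gene in both comparisons came without control rat 2, and the *Cd79b* difference at 4700 kBq turned without 4700 kBq rat 3 (-0.64) and without control rat 3 (-0.34). The slope was -1.58 to -0.36 for *Rag1* and -0.12 to 0.40 for *Cd79b*.

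The mean of *Rag1* and *Dntt* minus that of *Cd3e*, *Cd3d*, *Cd3g* and *Lck* was -2.45 at 340 kBq with quantile normalization and also -2.45 with the authors' matrix. With normexp it was -0.995, -0.89 and -1.01 at 170, 260 and 340 kBq and -0.90, -1.03 and -1.12 at 760, 1300 and 4700 kBq. With quantile normalization, r was 0.13 for *Rag1* and *Dntt*, -0.13 for *Rag1* and *Cd3e*, 0.14 for *Cd3e* and *Lck*, 0.22 for *Cd3e* and *Cd79b* and -0.067 for *Rag1* and *Cd79b*, and with the authors' matrix 0.10, -0.13, 0.14, 0.19 and -0.032. With median centring r was 0.30 for *Rag1* and *Cd3e*, 0.35 for *Cd4* and *Cd8a*, 0.40 for *Cd3e* and *Lck*, 0.37 for *Cd3e* and *Cd79b* and 0.42 for *Rag1* and *Cd79b*, no longer past the threshold. With normexp, *Cd3e* and *Tg* (-0.36) and *Rag1* and *Pth* (-0.46) passed it.

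With the rat number as a replicate block, the *Rag1* slope was -1.26 (adjusted p = 0.512 in limma) and that of *Cd4* had an adjusted p of 0.370. The block changed no call, and 4 probes were called in the slope. Slide, scan day and a fit of only 2 groups also changed no call of the 9 genes.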

Other observations

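Over the 33 rats other than control rat 2, 9 kBq rat 2 and 88 kBq rat 1, *Cd4* varied with macrophage genes. The genes most like it were *Csf1r*, the receptor of the macrophage growth factor (Pearson's r = 0.938), *Ccl6* (0.920), *Ptpro* (0.908), *Pltp* (0.901), *Ctss* (0.893) and *C1qa* (0.892), and over the 8 macrophage markers r with *Cd4* ranged from 0.712 (*Adgre1*) to 0.938. Rat macrophages are known to carry CD4. The 3 rats left the band in which *Cd4* followed *Csf1r*, with *Csf1r* at -2.79, -2.84 and -2.33, inside the range of -3.93 to -1.33 in the other rats, and *Cd4* above all of them. *Cd3g* was most like *Zap70* (0.772), with *Sit1* (0.732) and *Cd247* (0.692) also among its 8 nearest genes, and *Cd79b* was most like *Spib* (0.774), a transcription factor of B cells.

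Other members resembled genes outside the lymphoid lists in the same 33 rats. *Dntt* was most like *Marchf1* (0.907), *Pam16* (0.906) and *Mrps14* (0.904). *Cd3d* was most like *Dgat2l6* (0.943) and *Taar8c* (0.923), and *Lck* most like *Map9* (0.910) and *Diras1* (0.905). These likenesses are descriptions over 33 arrays that share the processing and carry no p-value, and they were chosen after the values had been seen.

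*Cr2* and *Cxcr5*, B-cell genes chosen after their values had been seen, had another order of rats than *Cd79b*. *Cr2* was highest in 88 kBq rat 3 (-2.76) and rat 4 (-3.08), and *Cxcr5* in the same rats (-4.03 and -4.99), where *Cd79b* was at -6.51 and -6.29. *Pth*, the parathyroid hormone gene, was at 6.51 and 6.67 in these 2 rats.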
